A study of Mus musculus with 3 samples.

Results

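The cells described here were mature neutrophils of mouse bone marrow, 1389 of the 31292 cells that passed the filters (4.44%), and 36035 cell barcodes were deposited in all. They were chosen by 4 genes: a cell was kept when it had at least 200 genes and at most 5% of its unique molecular identifiers (UMIs, each counting 1 captured RNA molecule) from mitochondrial genes, at least 5 Retnlg UMIs, at most 19 Ltf UMIs, and at least 1 UMI of Cxcr2 or Il1b. The Control library held 470 members, the IR library 438 and the IR+CBD library 481, and values given in threes below always follow that order. Levels of Retnlg, Ltf, Cxcr2 and Il1b are therefore a description of how the cells were selected, and are given without any comparison.

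The study asked how cannabidiol (CBD), a non-intoxicating compound of the cannabis plant, acts on the marrow after acute irradiation, by droplet single-cell RNA sequencing of bone marrow nucleated cells 14 days after exposure. Control was marrow without irradiation, IR came from mice given 6 Gy of gamma rays, and IR+CBD, as the methods describe it, came from mice given the same dose with CBD at 50 mg/kg in 4 intraperitoneal injections between 12 h before and 24 h after exposure. The methods name C57BL/6 mice, with males used for radioprotection, and soybean oil with DMSO as the solvent control. Marrow flushed from the femurs of 3 mice per group was sorted into Lin-Kit+, Lin-Kit- and Lin+ cells that were mixed again at 5:4:1, so each group is 1 library of pooled mice, shares refer to that mix and not to marrow, and no test between groups was possible. Intervals printed here are 95% intervals that cover counting error only.

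Neutrophils are short-lived phagocytes that leave the marrow once they have passed through a proliferating precursor stage and an immature, post-mitotic stage. Granule proteins are made in an order: primary granule proteases such as Mpo and Elane first, then secondary granule proteins such as lactoferrin (Ltf), cathelicidin (Camp) and Ngp, and last the tertiary granule proteins such as Mmp9. Late cells express the chemokine receptor Cxcr2, which draws them into the blood, the G-CSF receptor Csf3r, the resistin-like protein Retnlg, the alarmins S100a8 and S100a9 and, when stimulated, the cytokine Il1b. Type I interferon acts on nearly every marrow cell through a transcription factor complex that binds a short promoter element and switches on antiviral genes.

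The promoters of 4 interferon genes that differed widely between the libraries are printed first, because the largest group of genes that differed in these cells was of that kind. All 4 held the motif marked below, while Oasl2 and Irf7, which also differed widely, did not and are not printed. Each runs from 250 bases before the annotated start of transcription to 50 after it, 5′ to 3′ on the gene's strand, from RefSeq on build GRCm38.p6. Ifit1 is at chr19:34640639-34640938 on the plus strand, Ifit3 at chr19:34583279-34583578 on the plus strand, Isg15 at chr4:156200769-156201068 on the minus strand and Rsad2 at chr12:26456403-26456702 on the minus strand. Capitals mark matches to the core of the interferon element, GAAANNGAAA on the printed strand or TTTCNNTTTC for a match on the other strand.
Ifit1: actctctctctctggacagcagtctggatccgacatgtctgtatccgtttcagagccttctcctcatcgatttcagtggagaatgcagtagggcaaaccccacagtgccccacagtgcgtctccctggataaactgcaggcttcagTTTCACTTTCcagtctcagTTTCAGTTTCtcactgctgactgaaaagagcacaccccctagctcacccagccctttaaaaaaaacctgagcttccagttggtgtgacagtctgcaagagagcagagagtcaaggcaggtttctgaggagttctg
Ifit3: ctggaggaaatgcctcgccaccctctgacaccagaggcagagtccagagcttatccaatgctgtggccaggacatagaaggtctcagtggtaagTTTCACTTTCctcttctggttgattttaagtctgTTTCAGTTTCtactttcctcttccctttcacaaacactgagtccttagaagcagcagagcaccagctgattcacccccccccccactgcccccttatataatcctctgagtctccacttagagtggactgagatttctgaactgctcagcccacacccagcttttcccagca
Isg15: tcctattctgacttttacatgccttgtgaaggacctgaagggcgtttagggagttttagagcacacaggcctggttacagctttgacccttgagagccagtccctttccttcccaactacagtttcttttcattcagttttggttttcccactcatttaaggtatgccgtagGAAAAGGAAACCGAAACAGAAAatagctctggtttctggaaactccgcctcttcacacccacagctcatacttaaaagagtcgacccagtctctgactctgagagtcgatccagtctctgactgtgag
Rsad2: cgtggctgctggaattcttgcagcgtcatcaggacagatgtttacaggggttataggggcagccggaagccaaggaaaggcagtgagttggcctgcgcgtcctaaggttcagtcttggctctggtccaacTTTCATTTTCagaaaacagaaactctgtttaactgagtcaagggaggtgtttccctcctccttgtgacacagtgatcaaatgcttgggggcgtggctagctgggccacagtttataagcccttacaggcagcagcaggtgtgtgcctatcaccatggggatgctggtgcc
Ifit1 held 2 matches, beginning 85 and 104 bases before the start, Ifit3 held 2 at 122 and 156, Isg15 held 3 overlapping ones at 66, 72 and 78, and Rsad2 held 1 at 120. Among all 27025 genes of the table, 1079 (3.99%) held the motif in a window of this length. Of the 87 interferon genes in the files 70 were matched to a promoter and 37 of them (52.9%) held it, against 4 of 20 matched MHC class I genes (20%), 1 of 15 secondary granule genes (6.67%), 0 of 26 genes of the NF-kB list and 0 of 7 of the stefin list. Of the 42 interferon genes with a promoter that were at least 1.5-fold higher in IR over Control, 22 (52.4%) held it. Oasl2 and Irf7 had no match, which says only that these letters are not in this window. A match is a description of the sequence and not evidence of binding.

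The 3 libraries held 11884 to 12200 barcodes and 177806843 to 206932522 UMIs, and the filters kept 10273 to 10674 cells with a median of 12479.5 to 14211 UMIs. Pairs of libraries shared 35, 41 and 51 barcodes, of which 1, 0 and 1 belonged to members in both. Members were shallower than the median kept cell, with a median of 6321, 6766.5 and 6102 UMIs and of 1621, 1633 and 1523 genes.

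Retnlg, Cxcr2, Il1b and Ltf chose the cells, so their levels describe the selection and do not test the label. Retnlg had a median of 209.5, 274.5 and 236 UMIs per member, or 3.31%, 4.07% and 3.80% of all UMIs of the cell. Cxcr2 was seen in 1352 members, Il1b in 721 and both in 684, and Cxcr2 had a median of 3, 4 and 4 UMIs. Mmp8, the neutrophil collagenase, was not used to choose the cells and was seen in 96.4%, 97.5% and 96.9% of members. Together S100a8 and S100a9 made up a median of 28.4%, 28.98% and 29.2% of a member's UMIs. In the immature neutrophils described below it was 34.6%, 34.2% and 35.0%, so this share was not higher in members. Mmp8 had a median of 12, 13 and 9 UMIs in members and of 2, 5.5 and 5 in immature neutrophils. No Ltf was found in 273, 257 and 306 members. After thinning each cell to 2000 UMIs, which left out 4, 3 and 6 members, Mmp8 was seen in 86.9%, 86.7% and 84.2% of members, against 1.64%, 1.40% and 1.91% of B cells, which should lack it. For Csf3r the thinned shares were 62.02%, 60.00% and 63.4%, against 1.49%, 1.19% and 1.57% of B cells. The median depth before thinning was 4173, 4112 and 3485 UMIs for those B cells, chosen by Cd79a together with another B cell marker. Single B cells held up to 430, 520 and 493 Retnlg UMIs, and doublets among them were not removed.

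A minority of members went against the label. In 71, 52 and 63 members (186, or 13.4% of all) Retnlg was under 1% of UMIs, and these cells were deep, with a median of 23923, 32188 and 21197 UMIs and of 5492, 6013 and 4772 genes. They gave 42.5%, 38.9% and 35.0% of the members' UMIs, and S100a8 with S100a9 made up a median of only 6.18%, 3.23% and 5.19% of theirs. Of the 153 members with over 16000 UMIs, 118 were of this kind. The 911, 856 and 844 kept cells with the highest scores of a doublet caller (Scrublet) were marked. Their number was preset at 0.8% per 1000 kept cells and was not the caller's own call. Marked were 67.6%, 71.2% and 74.6% of the members with Retnlg under 1%, against 6.77%, 13.2% and 11.2% of the other members. Results are therefore also given for the 1203 members with Retnlg at 1% or more of UMIs (399, 386 and 418 cells), a limit chosen after seeing the data and called the Retnlg-high members below.

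**Figure D1:**
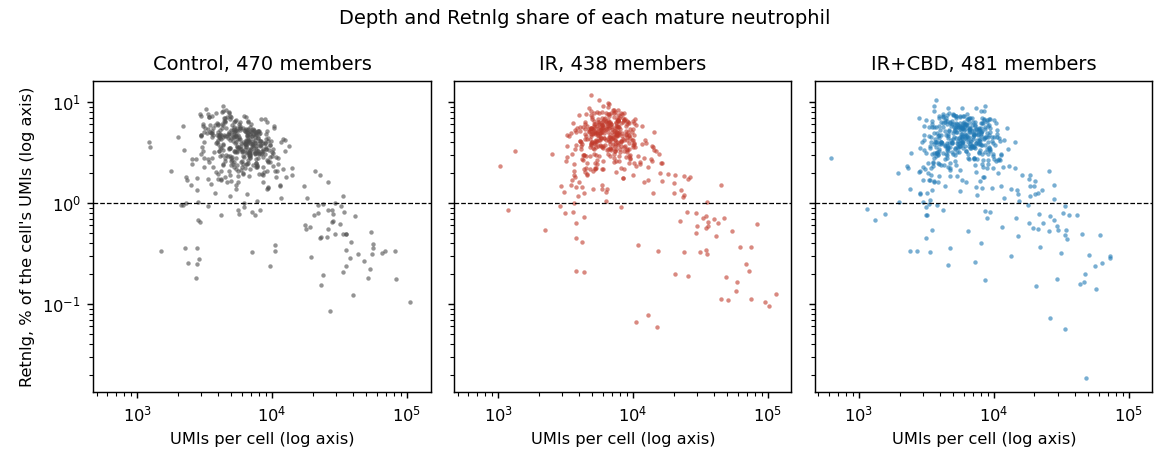
Each point is 1 mature neutrophil, with its total UMIs on the x axis and the percentage of them from Retnlg on the y axis (both log axes), 1 panel per library. The dashed line is at 1%; 71, 52 and 63 members lie under it, most of them to the right, with over 16000 UMIs.

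RNA of other cell types was also present in the members. Markers of neutrophil progenitors (Mpo, Elane, Prtn3, Ctsg; 4 of 4 with UMIs in each library) summed to 5189, 3772 and 4943 CPM (UMIs per 1000000 UMIs of the summed members), but to 603, 717 and 1244 in the Retnlg-high members. For Mpo the thinned share of members with a UMI was 30.04%, 18.9% and 26.9%, and that of B cells 35.2%, 20.3% and 24.8%, so the members' share was lower than that of B cells in Control and IR and slightly higher in IR+CBD. Monocyte and macrophage markers (7 of 7) summed to 756, 1009 and 774 CPM and B cell markers (5 of 5) to 349, 357 and 235 CPM. In the Retnlg-high members they summed to 741, 1175 and 828 and to 268, 305 and 238. B cells had 430, 313 and 325 CPM of the monocyte and macrophage markers. Without thinning, 65.3%, 79.7% and 66.1% of members had 3 or more UMIs of these, against 11.2%, 8.74% and 7.86% of B cells. Erythroid markers (5 of 5) stood apart, at 1719, 6995 and 5895 CPM, with 3 or more such UMIs in 3.404%, 11.6% and 8.52% of members. Their summed level was higher in the Retnlg-high members, at 2861, 9817 and 8034 CPM. A smaller share of those, 2.76%, 9.33% and 5.74%, had 3 or more such UMIs. By summed level that set holds less RNA of progenitors but not of erythroid cells. Its share of cells with 3 or more progenitor marker UMIs was 61.7%, 28.5% and 35.6%, against 64.9%, 34.7% and 40.5% of all members. In Control 41% of the Hbb-bs UMIs came from 1 member. T and NK markers (4 genes) summed to 156, 150 and 182 CPM, with Cd3e at 0 in Control. The 2 pDC markers, Siglech and Bst2, summed to 77.3, 131 and 58.9. Bst2 was also on the interferon list, with 612 UMIs in IR. Siglech was at 0 in the Retnlg-high members of IR and IR+CBD, so this sum does not measure pDC RNA alone. Stem and progenitor markers (4) summed to 121, 84.9 and 80.1 and megakaryocyte markers (3) to 103, 20.6 and 7.71. Basophil and mast cell markers (4) summed to 59.5, 92.7 and 164, and eosinophil markers (3) to 10.3, 8.29 and 6.31. The part of these cells' RNA in the gene differences given below was not tested beyond the Retnlg-high members and the alternatives.

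Few members lay just inside the Retnlg limit and more just inside the Ltf limit, while more cells lay just outside the Retnlg limit. Just inside the Retnlg limit, at 5 to 9 UMIs, lay 6, 4 and 4 members, and just outside, at 1 to 4 UMIs with the other limits met, lay 116, 109 and 112 cells. With 10 to 19 Ltf UMIs there were 58, 44 and 61 members, and with 20 to 29 there were 31, 28 and 37 cells outside. Another 30, 13 and 52 cells met the Retnlg and Ltf limits but had neither Cxcr2 nor Il1b.

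Mature neutrophils made up 4.40% (4.02 to 4.81), 4.23% (3.85 to 4.64) and 4.68% (4.28 to 5.11) of kept cells. The IR share was 0.962 times that of Control (0.842 to 1.10), and the IR+CBD share was 1.11 times that of IR (0.970 to 1.26), so neither difference was detectable beyond counting error. Among Retnlg-high members the ratios were 0.998 (0.866 to 1.15) and 1.09 (0.947 to 1.26). Immature neutrophils, chosen by at least 20 Ltf UMIs and 1 Ly6g UMI, were 650, 808 and 873 cells, and mature cells were 42.0% (39.1 to 44.9), 35.2% (32.5 to 37.9) and 35.5% (33.0 to 38.1) of both stages together. The mature part was thus lower in both irradiated libraries by more than counting error, with 1 library per group. The mature part was not recomputed under other Ltf limits. Without the members that had 3 or more UMIs of other types' markers, which left 111, 48 and 96, the ratios were 0.446 and 2.01. Monocyte and macrophage markers alone reached 3 UMIs in 65.3%, 79.7% and 66.1% of members, and Siglech with Bst2 in 8.09%, 11.4% and 6.65%. Bst2 is an interferon gene higher in IR, so members were also left out by an interferon gene.

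The genes at both ends of the fold between mature and immature neutrophils describe how the stages differed. Because Ltf and Retnlg chose the cells, the folds describe the gates and carry no test. Among 8270 genes, Ccl6, a chemokine of myeloid cells, was furthest up, at 39.8, 32.3 and 41.7 times its immature level. Acod1, which makes itaconate, stood at 19.9, 19.9 and 18.3 times, and the chemokine Cxcl2 at 13.5, 11.8 and 16.5 times. Wfdc17 (17.9, 28.5 and 21.6 times), Clec4d, a C-type lectin (14.2, 13.4 and 18.9), Cd101, a surface marker of fully mature marrow neutrophils (13.1, 19.8 and 13.2), the prostaglandin synthase Ptgs2 (16.5, 11.9 and 25.5) and the inflammasome sensor Nlrp3 (11.3, 14.9 and 27.1) were also over 11 times higher in each library. Genes at the other end included the secondary granule proteins Camp and Ngp. Camp stood at 0.0327, 0.0297 and 0.0307 of its immature level, Chil3 at 0.0267, 0.0203 and 0.0259, Ngp at 0.100, 0.0883 and 0.110, and Cebpe, the transcription factor of that granule programme, at 0.107, 0.0924 and 0.112. Cybb, the membrane subunit of the oxidase, was lower too, at 0.169, 0.155 and 0.168.

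**Figure D2:**
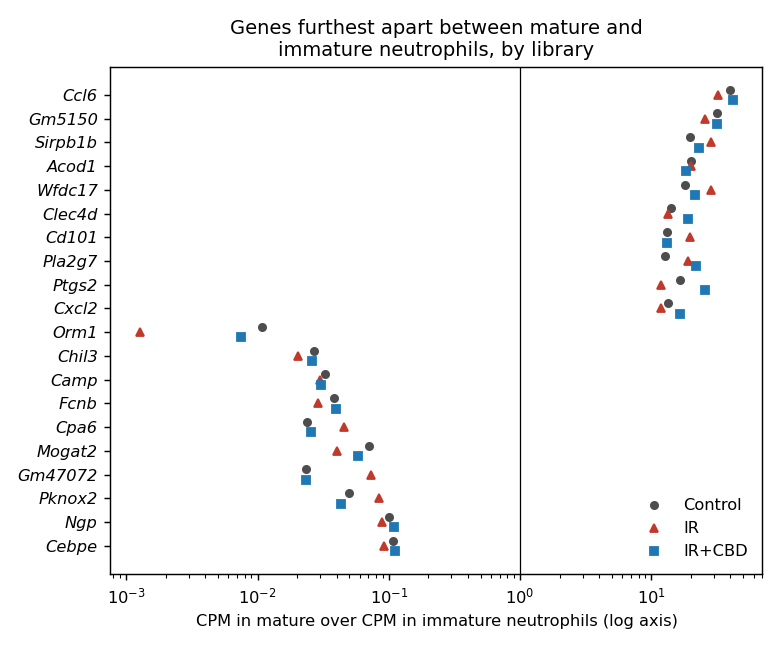
The x axis (log) is the CPM in mature over that in immature neutrophils of the same library, for the 10 genes with the highest and the 10 with the lowest fold; symbols are the 3 libraries. Ccl6 lies between 32.3 and 41.7 times and Camp near 0.03, and Orm1 ranges from 0.00128 to 0.0109.

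Members with a UMI of Il1b had higher levels of Ptgs2, Acod1 and Cxcl2 and lower levels of Camp and Ngp than members without. The split was made in Retnlg-high members thinned to 2000 UMIs, and 143 of 396 cells (36.1%), 148 of 384 (38.5%) and 159 of 415 (38.3%) had a UMI of Il1b. The median was 5190, 5372.5 and 4661 UMIs in cells with Il1b and 6637, 7181 and 6679 in cells without. Of 2601 genes, Ptgs2 had the highest fold in its lowest library, at 3.64, 3.76 and 3.61 times the level of cells without Il1b. Clec7a, the beta-glucan receptor, was at 2.95, 4.23 and 3.81 times, Acod1 at 2.31, 3.24 and 4.03, Cxcl2 at 2.18, 2.51 and 2.57, Wfdc17 at 3.15, 1.99 and 2.44, and Csf3r at 1.88, 2.06 and 2.01. At the low end were Camp at 0.252, 0.188 and 0.123 of the level without Il1b, Ngp at 0.369, 0.252 and 0.312, Chil3 at 0.307, 0.252 and 0.355, and Cd177 at 0.547, 0.405 and 0.483. The genes were ranked by the fold in their least favourable library, which fixes a shared direction, and the split rests on 1 gene of the selection, so it is a description.

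The first comparison asked what irradiation left in mature neutrophils at day 14. A gene is counted as higher or lower here when its CPM over the summed members differed by at least 1.5-fold and it had 100 or more UMIs over the pair of libraries, and the genes of the gate were left out. In IR over Control 353 of 7522 genes were higher (4.69%) and 231 lower (3.07%), and in Retnlg-high members 248 of 4527 were higher (5.48%) and 105 lower (2.32%). Giving each member the same weight turned that split to 317 higher and 470 lower, and over all alternatives the counts ran from 56 to 611 higher and from 40 to 470 lower. The median over all genes was 0.00 on the log2 scale.

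Interferon genes were the group that stood out in IR. Of the 68 tested, 54 were at least 1.5-fold higher and 1 lower, with a median of 1.09 on the log2 scale, beside 4.69% of all genes higher. Retnlg-high members gave 46 of 57, beside 5.48% of all genes, and a median of 1.30. Ifi27l2a, an interferon-induced mitochondrial protein, was the most abundant of those that differed widely, with 791, 8403 and 782 UMIs, or 176, 1787 and 183 CPM. It was 10.1 (9.42 to 10.9) times as high in IR as in Control, and at Control's level again in IR+CBD. After thinning, 20.2%, 73.8% and 20.8% of members had a UMI of it. The same share in B cells was 29.7%, 79.6% and 40.6%, so the share in members was not above that in B cells, and RNA of this gene from outside the cells and from the members cannot be told apart by this measure.

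The antiviral effectors followed the same order of libraries, with IR above the other two. Isg15, a ubiquitin-like modifier, had 239, 1198 and 284 UMIs (53.3, 255 and 66.3 CPM), a ratio of 4.78 (4.16 to 5.52) for IR over Control. Rsad2, the antiviral enzyme viperin, had 55, 668 and 248 UMIs and a ratio of 11.6 (8.80 to 15.5). Ifit1, which binds foreign RNA caps, had 35, 392 and 68 UMIs and a ratio of 10.7 (7.55 to 15.6). Its relative Ifit3 had 15, 239 and 36 UMIs, the smallest counts of this set, and a ratio of 15.2 (9.03 to 27.6). The promoters of these 4 genes are the ones printed above. Oasl2, of the oligoadenylate synthetase family, had 136, 844 and 208 UMIs and a ratio of 5.92 (4.94 to 7.15). Rtp4 was at 50.1, 194 and 64.01 CPM (ratio 3.88, 3.35 to 4.51) and Slfn5 at 8.47, 80.8 and 13.3 CPM (ratio 9.54, 6.83 to 13.7). The share of members with a UMI after thinning was 11.4%, 41.4% and 13.5% for Isg15 and 3.65%, 25.7% and 8.63% for Rsad2, so the higher sums in IR came with more members that had the RNA. B cells had a UMI of Isg15 in 1.49%, 7.46% and 2.13% and of Rsad2 in 0.159%, 0.966% and 0.449%.

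Regulators of the pathway were higher in IR as well, with the larger folds in Irf7 and Usp18. Irf7, the factor that amplifies interferon output, had 56, 424 and 77 UMIs and a ratio of 7.22 (5.46 to 9.73). Stat2 was at 10.03, 21.9 and 13.8 CPM (ratio 2.18, 1.52 to 3.17) and Irf9 at 25.4, 49.3 and 31.3 CPM (ratio 1.94, 1.55 to 2.45). Usp18, which damps the receptor's signal, had 19, 157 and 46 UMIs (ratio 7.88, 4.88 to 13.4). These genes lay in IR above both other libraries.

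Ifitm proteins, which block virus entry at membranes, did not move as 1 group. Ifitm3 was at 1340.4, 2188 and 1352 CPM, 1.63 (1.58 to 1.69) times in IR over Control. Ifitm1 was at 1469.9, 958 and 1189.8 CPM and the lower gene of the list at 0.652 (0.627 to 0.677), Ifitm6 was at 2899.7, 2039 and 2405 CPM (ratio 0.703, 0.685 to 0.722) and Ifitm2 at 1946, 1519 and 1817 CPM (ratio 0.781, 0.756 to 0.805). Ifitm3 thus passed the limit upward and Ifitm1 downward, and Ifitm6 and Ifitm2 stayed within it. In Retnlg-high members only Ifitm3 of these 4 passed, at 1.69, with Ifitm1 at 0.719, Ifitm6 at 0.700 and Ifitm2 at 0.770.

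Of the MHC class I and peptide loading genes, which show peptides to CD8 T cells, 11 of 22 were higher in IR and 0 lower, with a median of 0.68 on the log2 scale. The shares of all genes were 4.69% higher and 3.07% lower. H2-K1 had 1312, 3690 and 1659 UMIs (292, 785 and 388 CPM) and a ratio of 2.68 (2.52 to 2.86). The light chain B2m was at 592, 1212 and 708 CPM (ratio 2.05, 1.96 to 2.15), H2-D1 at 942, 1679 and 1132 CPM (ratio 1.78, 1.72 to 1.85) and the non-classical H2-Q7 at 23.6, 134 and 36.4 CPM (ratio 5.65, 4.60 to 7.01). In Retnlg-high members the ratio was 4.48 (4.03 to 4.996) for H2-K1 and 10.4 (7.004 to 16.02) for H2-Q7. There 13 of 21 genes of the list were higher, beside 5.48% of all genes. H2 genes are near-identical in part, so reads may be split among them.

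**Figure D3:**
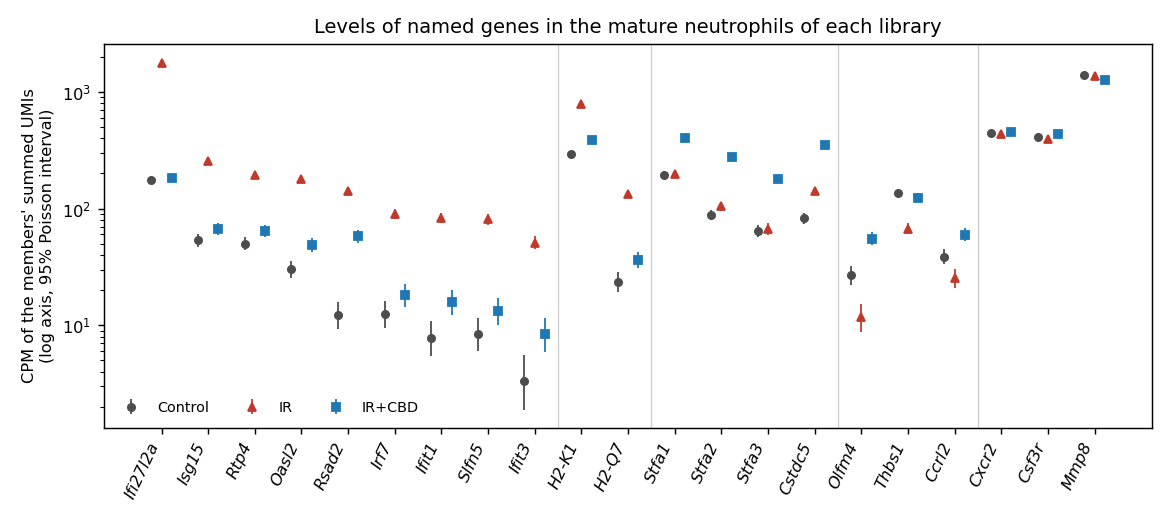
The y axis (log) is the CPM of the summed UMIs of all members of a library, with 95% Poisson intervals that cover counting error only. IR lies above Control and IR+CBD for the 9 interferon and the 2 MHC class I genes, IR+CBD lies highest for the 4 stefin genes, and Csf3r and Mmp8 stay within 1.5-fold; Cxcr2 is shown as a gene of the selection.

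Genes lower in IR over Control were outnumbered by higher ones as counted here, but not after Scrublet removal (120 higher, 372 lower), without the members that had other types' markers (56 and 85) or with equal weights. Thbs1, the adhesion protein thrombospondin, had 608, 317 and 532 UMIs and a ratio of 0.498 (0.433 to 0.571), with 0.526 (0.454 to 0.608) in Retnlg-high members and 0.0641 to 0.571 over the alternatives. Of 22 immediate early genes 6 were lower and 0 higher, beside 3.07% and 4.69% of all genes. Their median was -0.21, and in Retnlg-high members it was -0.01. Egr1 had 877, 402 and 408 UMIs and a ratio of 0.437 (0.388 to 0.493), with 0.641 (0.550 to 0.746) in Retnlg-high members, and Nr4a1 0.432 (0.356 to 0.521) and 0.835 (0.644 to 1.08). Fosb was lower in both sets, at 0.601 (0.481 to 0.748) and 0.551 (0.399 to 0.758). The lowest ratio of all genes, that of the platelet factor Pf4 (395, 47 and 8 UMIs), rested on few cells, with 52% of Control's UMIs in 1 member and 1, 5 and 6 UMIs in Retnlg-high members. Likewise the highest ratio, that of the basophil protease Prss34 (6, 144 and 659 UMIs), had 97% of IR's and 98% of IR+CBD's UMIs in 1 member. Single cells thus held most of the UMIs behind the largest ratio in each direction.

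Among inflammatory mediators, Acod1 was the 1 of 28 tested that was higher in IR and 3 were lower, with a median of -0.04. Of all genes 4.69% were higher and 3.07% lower. Acod1 had 956, 1687 and 1825 UMIs, 213, 359 and 426 CPM, and a ratio of 1.68 (1.55 to 1.82). Cxcl2, which recruits further neutrophils through Cxcr2, was at 1083, 1339 and 1872 CPM and 1.24 times, short of the limit. Ccrl2, an atypical chemokine receptor, was lower, with 174, 119 and 256 UMIs and a ratio of 0.653 (0.512 to 0.829). Wfdc17 was at 1471, 1022 and 1469 CPM (ratio 0.695, 0.669 to 0.721), also short of it.

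Globin and other erythroid marker genes were higher in IR, 5 of 5 tested, beside 4.69% of all genes, with a median of 2.29. Hbb-bs had 4932, 22764 and 17043 UMIs and was seen in 2.79%, 10.3% and 7.16% of thinned members and 0.902%, 3.16% and 2.64% of thinned B cells. The B cell shares were also higher in the irradiated libraries. Whether RNA from outside the cells gave these counts was not tested.

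The second comparison asked what CBD added in irradiated mice. In IR+CBD over IR 91 of 7346 genes were higher (1.24%) and 313 lower (4.26%), and in Retnlg-high members 88 of 4580 were higher (1.92%) and 202 lower (4.41%). Over all alternatives the counts ran from 15 to 214 higher and from 41 to 606 lower. The split moved with the scaling, to 146 and 218 with median-of-ratios size factors, to 135 and 240 with the 20 most abundant genes left out of the total, and to 214 and 354 with equal weight for each member. The median of all genes was -0.08. Both comparisons share the IR library, so counting error in IR enters each with opposite sign.

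Interferon genes were lower in IR+CBD: 53 of 68 tested and none higher, with a median of -0.95, beside 4.26% of all genes lower. For Ifi27l2a the ratio was 0.102 (0.0949 to 0.110), for Isg15 0.260 (0.228 to 0.297), for Oasl2 0.271 (0.231 to 0.315), for Irf7 0.199 (0.154 to 0.255), for Ifit1 0.191 (0.145 to 0.247) and for Ifit3 0.165 (0.113 to 0.236). Rsad2 came down least of the promoters printed, to 0.408 (0.351 to 0.473), and 37% of its UMIs in IR+CBD sat in 1 member, without which the ratio was 0.268. For IR+CBD over Control the list's median was 0.15, with 9 of 56 higher and 2 lower, beside 1.8% of all genes higher and 4.31% lower. Rsad2 was still above Control with that member counted, at 4.73 (3.52 to 6.45), and so was Ifit1, at 2.04 (1.34 to 3.16), while Ifi27l2a was at 1.04 (0.938 to 1.15). Of the MHC class I list 10 of 22 were lower than in IR, beside 4.26% of all genes, with a median of -0.53. H2-K1 was at 0.494 (0.466 to 0.523), B2m at 0.584 (0.559 to 0.610) and H2-Q7 at 0.273 (0.228 to 0.326).

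The interferon difference was spread over the members and not set by a few cells. Thinned to 2000 UMIs, a member had a median of 24, 37 and 23 UMIs of the 87 interferon genes. Their quartiles were 12 and 35.75, then 27 and 49, and 16 and 33. Retnlg-high members had medians of 27, 37 and 24. The lower quartile in IR lay above the medians of the other two libraries, and the distributions overlapped. On the same measure B cells had medians of 8, 15 and 8 UMIs. Whether RNA from outside the cells was part of the members' counts was not tested.

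**Figure D4:**
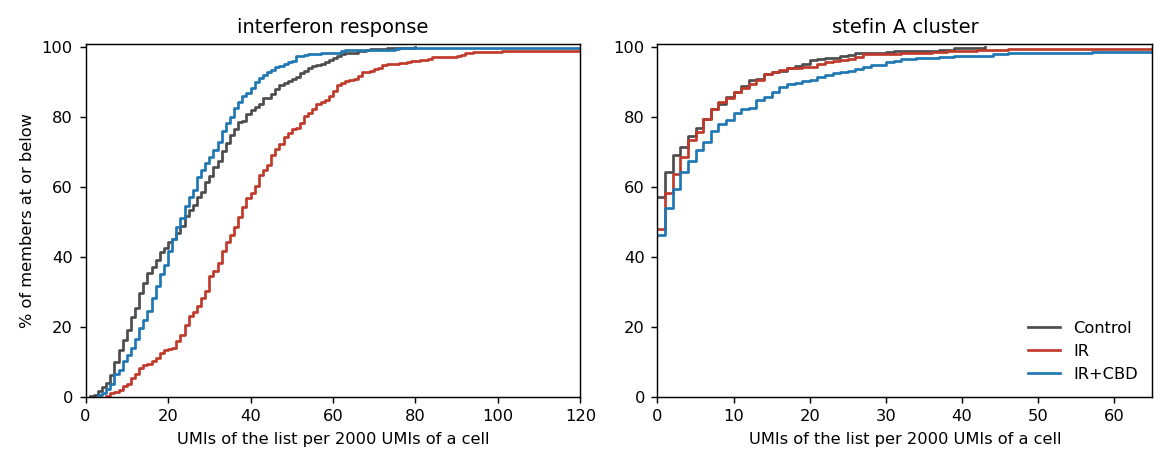
The y axis is the percentage of members with at most the number of UMIs on the x axis, after thinning each cell to 2000 UMIs, for the 87 interferon genes (left) and the 7 stefin A cluster genes (right). On the left IR lies to the right of both other libraries over most of its range (medians 37 against 24 and 23), and on the right 57.1%, 48.0% and 46.3% of members have no UMI, with means of 3.68, 4.41 and 6.62 UMIs.

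Over all members, genes of the stefin A cluster, which encode small inhibitors of cysteine proteases, were the group that was highest in IR+CBD. Of 8 tested 4 were higher than in IR, with a median of 0.69, beside 1.24% of all genes higher. In Retnlg-high members the primary granule list, given below, was higher in IR+CBD as well, and the lists were not ranked there. Stfa1 had 873, 924 and 1713 UMIs (195, 197 and 400.2 CPM), with IR at 1.01 (0.920 to 1.11) times Control and IR+CBD at 2.04 (1.88 to 2.21) times IR. Stfa2 had 398, 490 and 1196 UMIs and ratios of 1.17 (1.03 to 1.34) and 2.68 (2.41 to 2.98), and Stfa3 290, 314 and 761 UMIs and ratios of 1.03 (0.878 to 1.22) and 2.66 (2.33 to 3.05). Cstdc5 was higher in both steps, with 369, 667 and 1504 UMIs and ratios of 1.72 (1.52 to 1.96) and 2.48 (2.26 to 2.72), the first of which turned to 0.758 without the members that had other types' markers. The second ran from 1.41, with at most 9 Ltf UMIs, to 12.3 without those members, and the median of the list ran from 0.41 to 1.30 under the same alternatives. The more abundant Stfa2l1 (395, 500.4 and 609 CPM) and Cstdc4 (497, 610.4 and 785 CPM) were at 1.22 (1.15 to 1.29) and 1.29 (1.22 to 1.35), under the limit.

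These sums rested on few members. A UMI of Stfa1 was seen in 6.01%, 7.13% and 10.7% of thinned members and of Cstdc5 in 4.72%, 5.52% and 9.26%, against 0.265%, 0.0878% and 0.112% and 0.159%, 0.176% and 0.280% of B cells. A single member held up to 25% of a gene's UMIs in a library. Ratios for IR+CBD over IR in Retnlg-high members were 1.70 (1.56 to 1.84) for Stfa1, 2.07 (1.85 to 2.31) for Stfa2, 2.39 (2.09 to 2.74) for Stfa3 and 1.95 (1.77 to 2.15) for Cstdc5, all past the limit, and without the top member that of Stfa2 was 2.61. The stefin genes are near-identical in part, so reads may be split among them.

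Activation genes were higher in IR+CBD in smaller number. Of 28 genes of the NF-kB and mediator list 3 were higher and 0 lower, beside 1.24% and 4.26% of all genes, with a median of 0.33. In Retnlg-high members 6 of 25 were higher, beside 1.92% of all genes, with a median of 0.31. Ccrl2 was at 2.36 (1.89 to 2.96), Thbs1 at 1.84 (1.60 to 2.13), with 1.29 to 12.4 over the alternatives, and Ptgs2 at 1.80 (1.54 to 2.10), the last 1.26 (1.05 to 1.51) in Retnlg-high members. Cxcl2 went from 1.24 in the first comparison to 1.40 (1.35 to 1.45) in the second, so IR+CBD held the highest level. Acod1 was at 1.19 (1.11 to 1.27). Among immediate early genes 3 of 22 were higher, beside 1.24% of all genes, with Fosb at 2.17 (1.76 to 2.69) and Jun at 1.53 (1.43 to 1.65). Rgs1, which shortens G-protein signalling, was at 2.55 (2.07 to 3.17).

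Olfm4, a glycoprotein of a subset of neutrophils, had 120, 55 and 236 UMIs and the widest ratio of IR+CBD over IR apart from Prss34, 4.71 (3.50 to 6.44). In IR over Control it was at 0.437 (0.312 to 0.607), but 42% of IR's UMIs lay in 1 member, and the direction turned under other gates, to 1.44 with up to 39 Ltf UMIs and to 1.15 with the gate set on thinned cells. Under those gates IR+CBD over IR fell short of the limit, at 1.30 and 1.37. Immature neutrophils had 158, 92.1 and 85.98 CPM.

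Few surface receptors passed the limit, as was so of all genes. Of 34 surface receptors 0 were higher and 1 was lower in IR over Control, beside 4.69% and 3.07% of all genes. Their median was -0.07. In IR+CBD over IR none of 33 passed either limit, with a median of 0.05, beside 1.24% higher and 4.26% lower of all genes. Csf3r was at 411, 392 and 436 CPM, the integrin chain Itgam at 208, 194 and 193, the decoy receptor Il1r2 at 929, 900.0 and 866 and Cxcr4, which holds cells in the marrow, at 61.3, 69.1 and 77.1. Ly6g, the surface protein used to sort neutrophils, was at 394, 524 and 506 CPM, 1.33 (1.25 to 1.41) for IR over Control. None of these passed 1.5-fold.

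Few granule genes passed the limit outside the primary granules. Medians for IR over Control and for IR+CBD over IR were -0.10 and 0.08 for secondary granules and -0.11 and 0.03 for tertiary granules and secretory vesicles. Mmp8 was at 1394, 1370.1 and 1254 CPM, Mmp9 at 1048, 1136 and 1032 and Lcn2, which binds bacterial siderophores, at 4797, 5241 and 5288. Primary granules had -0.39 and 0.33, with 1 of 11 higher and 2 lower and then 1 higher, whereas Retnlg-high members gave 0.20 and 0.84, with 3 of 9 higher and then 6 of 9 higher. Of all genes 4.69% were higher and 3.07% lower and then 1.24% higher, and in Retnlg-high members 5.48% and then 1.92% were higher. In those cells Mpo was at 146, 164 and 384 CPM and Elane at 83.3, 185 and 181 CPM. B cells had 960.1, 689 and 922 CPM of Mpo, so the level in Retnlg-high members was below the level in B cells. The B cell sums include deep cells, of up to 157860, 120612 and 106975 UMIs, and doublets among B cells were not removed.

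Of the remaining lists, cell cycle genes had the median furthest from 0. In the order of the comparisons above, they were -0.01 and -0.05 for the NADPH oxidase, -0.02 and -0.06 for survival and death genes, -0.09 and 0.18 for p53 targets, -0.14 and 0.05 for glycolysis, 0.13 and -0.09 for oxidative phosphorylation, 0.14 and -0.00 for antioxidant genes, -0.04 and 0.03 for actin and migration, -0.04 and -0.01 for myeloid transcription factors, -0.05 and 0.16 for S100 proteins, -0.03 and 0.09 for Fc receptors and lectins, 0.09 and -0.13 for cytosolic ribosomal proteins and 0.26 and -0.35 for cell cycle genes. Mcl1, which keeps neutrophils alive, was at 601, 582 and 569 CPM. S100a8 was at 86348, 74131 and 89694 CPM and S100a9 at 103808, 99736 and 111749 CPM, and for S100a8 IR had the lowest value, by less than the limit.

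**Figure D5:**
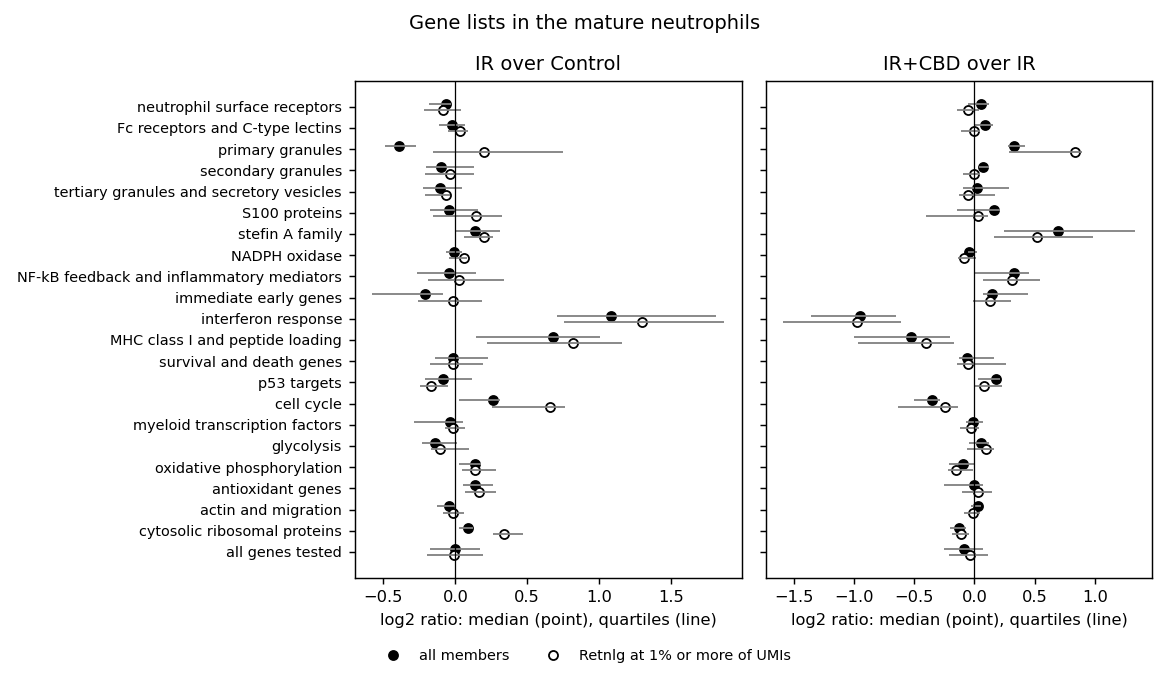
Each row is a gene list, with its median log2 ratio as a point and its quartiles as a line, for IR over Control (left) and IR+CBD over IR (right). Filled points are all members and open points the Retnlg-high members. The interferon (1.09 and -0.95) and MHC class I lists (0.68 and -0.53) lie above 0 on the left and below 0 on the right, the stefin list lies at 0.69 on the right, and primary granules change sides on the left between the sets of members.

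Immature neutrophils and monocytes of the same libraries are given beside the mature cells, without a test of the difference. For IR over Control the interferon median of 1.09 in mature cells stood beside 1.10 in immature neutrophils (51 of 66 higher, beside 3.72% of all genes) and 0.97 in monocytes (57 of 81 higher, beside 2.62%), and in the CBD comparison -0.95 stood beside -0.91 and -0.76. Levels per cell were not the same: thinned to 2000 UMIs, immature neutrophils had a median of 20, 23 and 17 interferon UMIs, monocytes 9, 12 and 8, and mature cells 24, 37 and 23. These sums include abundant Ifitm genes. Ifitm1 stood in mature neutrophils at 8.21, 10.6 and 11.6 times its immature level, so the sums also hold differences between the stages. Isg15 was at 11.9, 91.8 and 16.4 CPM in immature neutrophils and 5.44, 37.9 and 8.71 in monocytes. The stefin median for IR+CBD over IR was 0.69 in mature and 0.08 in immature cells, where Stfa1 was at 74.2, 165 and 165 CPM. Monocytes held almost no stefin UMIs, with Stfa1 at 0.0821, 0.0732 and 0.157 CPM. The median of the NF-kB and mediator list in monocytes was -0.35 and 0.42.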

How the data were processed

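The values were raw UMI counts, deposited by the authors as 1 gene-by-cell matrix for each of the 3 libraries (56980 genes). The submitters' processing notes name Cell Ranger 4.0 and the build GRCm39, and the file headers name version 7.0.1. The authors removed doublets with DoubletFinder in their own work. Here doublets were kept in the main results, and as an alternative a preset number of cells with the highest Scrublet scores was removed.

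The study's filters were applied (200 genes, 5% mitochondrial UMIs) and then the gate on Retnlg, Ltf, Cxcr2 and Il1b. UMIs of the members were summed per library and scaled to 1000000 (CPM), with exact Poisson intervals. Ratios had exact conditional binomial intervals, shares Clopper-Pearson intervals (95%), and log2 ratios a pseudocount of 0.5 UMI. A gene was tested with at least 100 UMIs over the libraries compared and counted at 1.5-fold or more. A gene rare in 1 library could thus be tested through its UMIs in the other. With 1 library per group no p-value was possible. Thinning drew 2000 UMIs per cell without replacement. The gene lists, gates and members were chosen with earlier results of these data known. Genes named were the gate genes and Mmp8, the 10 highest and 10 lowest ratios by the bound nearest to 1, the 4 most abundant and the extreme genes of each list, the 20 most abundant genes, and the 10 extreme folds of mature over immature cells at each end; other named genes (for example regulators and Ifitm6) were members of those lists chosen after their values were seen. Python 3.11.15, numpy 2.4.6, scipy 1.17.1, pandas 2.3.3, scanpy 1.11.5 and matplotlib 3.10.9 were used, and the calculations were tested on simulated data. Alternatives were other gates, filters, scalings and limits.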

Additional observations from a re-analysis of the deposited data

Results flagged for a closer look

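Cell cycle genes had a median of 0.26 on the log2 scale for IR over Control in mature neutrophils (1 of 29 past 1.5-fold) and of -0.21 in immature neutrophils, opposite directions under the same contrast. The difference was not tested, since each group is 1 library. In Retnlg-high members the median was 0.66, with 9 of 15 genes higher, beside 5.48% of all genes. Mature neutrophils do not divide, and Mki67 was at 26.3, 43.5 and 37.0 CPM in Retnlg-high members and at 294, 236 and 268 CPM in B cells. Whether RNA from other cells gave these counts was not tested.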

How the results depend on the processing

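Of 782 values under alternatives, 608 stayed within tolerance, 167 moved and 7 changed direction. The tolerance was 0.15 on the log2 scale for list medians, 1.5 times for counts and the interval of the main value for genes and shares, and a change of direction was counted only where the gene had passed the fold limit or the median was at least 0.15 from 0. Leaving out members with 3 or more UMIs of other types' markers (111, 48 and 96 members remain) moved the ratio of shares to 0.446 for IR over Control and 2.01 for IR+CBD over IR. Monocyte and macrophage markers alone reached 3 UMIs in 65.3%, 79.7% and 66.1% of members. Because the markers also include Bst2, this alternative left out members by an interferon gene as well. Genes higher in IR over Control (353) came to 120 with the Scrublet removal, 158 with the thinned gate, 56 without other types' markers, 138 with at most 16000 UMIs (chosen after seeing the data, as was Retnlg at 1% or more), 611 and 119 at minimums of 50 and 300 UMIs, and 141 at 2-fold. Lower genes (231) came, in the same order without the thinned gate, to 372, 85, 126, 436, 53 and 40, and to 105 with Retnlg at 1% or more and 470 with equal weights. For IR+CBD over IR, higher genes (91) came to 189 with the thinned gate, 50 without other types' markers, 143 with at most 16000 UMIs, 146 with median-of-ratios factors, 214 with equal weights, 186 and 32 at the 2 minimums and 15 at 2-fold. Lower genes (313) came to 145 with Scrublet, 471 with Cxcr2 alone, 143 with the thinned gate, 41 without other types' markers, 202 with Retnlg at 1% or more, 131 with at most 16000 UMIs, 606 and 83 at the minimums and 64 at 2-fold. The interferon median for IR over Control (1.09) came to 1.27 with Scrublet, 0.88 without other types' markers, 1.30 with Retnlg at 1% or more and 1.29 with at most 16000 UMIs. It kept its sign under all 15 alternatives in both comparisons. Medians at least 0.15 from 0 that changed sign were immediate early genes for IR over Control (0.037 with Scrublet, 0.0014 with at most 16000 UMIs) and primary granules (0.20 with Retnlg at 1% or more for IR over Control, -1.28 with Scrublet for IR+CBD over IR). Medians closer to 0 crossed it as well: surface receptors ran from -0.09 to 0.16 and from -0.21 to 0.14 in the 2 comparisons, secondary granules from -0.16 to 0.12 and from -0.10 to 0.16, and the NF-kB list from -0.15 to 0.06 for IR over Control. Among genes past the limit Cstdc5 came to 0.758 for IR over Control without other types' markers, and Olfm4 to 1.44 with up to 39 Ltf UMIs and 1.15 with the thinned gate. Below the limit, Acod1 ran from 0.91 to 1.26 for IR+CBD over IR and Stfa2 from 0.871 to 1.47 for IR over Control. The cause was not tested. No paired analysis was possible because each group is 1 library. Depth limits genes under 100 UMIs, and pooled mice give no spread between animals.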
